A study of Mus musculus with 15 samples.

Results

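The genes described here code for the enzymes, carriers and regulators of fatty acid oxidation in mitochondria and peroxisomes. They were chosen by gene symbol, with no measured value in the rule but with earlier results of these data known. All 33 were found among the 23284 genes of the kidney table. Kidney RNA of WT mice was sequenced in 15 samples, 5 labelled D-ala, 5 labelled L-ala and 5 labelled vehicle, each with a time of 2 h. D-ala and L-ala are mirror-image forms of the amino acid alanine, and the series asks what D-ala does to kidney transcripts. The sources used here give no strain, age, dose, route or vehicle composition, so doses cannot be called matched. Whether the samples are separate animals is not stated, so p-values measure only the spread between these samples, which may be technical.

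Fatty acids are activated to acyl-CoA in the cytosol and enter mitochondria as carnitine esters, through an outer-membrane transferase (Cpt1a), a carrier (Slc25a20) and an inner-membrane transferase (Cpt2). Inside, dehydrogenases, hydratases and thiolases shorten the chain step by step, and electrons leave through the electron-transferring flavoprotein. Peroxisomes shorten very long and branched chains with their own set of enzymes. The nuclear receptor PPARalpha (Ppara) is the best known activator of many of these genes, and in the kidney the proximal tubule, which has little use of glucose as fuel, relies on this pathway for energy.

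Levels are FPKM, fragments per kilobase of transcript scaled to the size of the library, which can be compared between genes. Fold changes are differences of log2(FPKM + 1) with their standard errors (SE), and a gene was called when its limma p, adjusted by Benjamini and Hochberg's method over all 11781 genes tested, was under 0.05. A gene was tested when it reached 1 FPKM in at least 5 libraries. Of the 33 members, 32 were tested. Abcd2, a peroxisomal transporter of very long acyl-CoA, was the exception and lay between 0 and 0.231 FPKM in all libraries. Depth, estimated from the rescaled counts, was about 7570000 to 10940000 reads per library.

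Few members changed, and the share called was close to or below the share of all genes called. Under D-ala, 1 of 32 members was higher than under vehicle and 0 were lower, beside 6.53% and 4.92% of all genes tested. Under L-ala, 1 was higher and 1 lower than under vehicle, beside 6.48% and 4.53% of all genes. Between the treatments, 2 were higher and 0 lower with D-ala than with L-ala, beside 7.01% and 6.66% of all genes. The called members were Cpt1a for D-ala against vehicle, Hadh and Pex11a for L-ala against vehicle, and Cpt1a and Pex11a for D-ala against L-ala. At an unadjusted p under 0.05, 6 members were higher and 0 lower for D-ala against vehicle, 6 and 1 for L-ala against vehicle, and 6 and 3 between D-ala and L-ala. Of all 11781 genes tested, 3126, 3590 and 3632 passed that unadjusted limit in the same comparisons, in either direction. With limma voom on the rescaled counts, no member was called for D-ala against vehicle, 0 were higher and 1 lower for L-ala against vehicle, and 2 were higher and 0 lower for D-ala against L-ala. Under voom, 534 of all 11781 genes were higher and 1237 lower in the first of these comparisons. The all-gene counts were 289 and 1831 in the second, and 1106 and 475 in the third.

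The fold changes were small. For D-ala against vehicle, 26 of 32 members had a positive log2 fold change, with a median of 0.12 and a range of -0.07 to 0.39, beside 50.4% positive and a median of 0.0011 over all genes. Setting L-ala against vehicle, 21 were positive, with a median of 0.06, beside 51.5% positive and a median of 0.0070 over all genes. Between D-ala and L-ala, 18 were positive, with a median of 0.02, beside 48% positive and a median of -0.0090 over all genes. Of all genes called, 57%, 58.8% and 51.3% were higher in these 3 comparisons, whereas it was 47%, 40.7% and 56.5% with quantile normalization and 30.2%, 13.6% and 70% with limma voom, which moved the median of all genes to -0.06, -0.10 and 0.03. The members' medians were 0.06, -0.09 and 0.11 with quantile normalization, and 0.06, -0.05 and 0.06 with limma voom, so that for L-ala against vehicle turned negative under both. Leaving out D-ala replicate 2 turned the D-ala against L-ala median to -0.01, and over all 25 alternatives the D-ala against vehicle median lay between 0.06 and 0.18. Both treatments are set against the same 5 vehicle libraries, so the counts of positive members are not independent of each other.

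**Figure D1:**
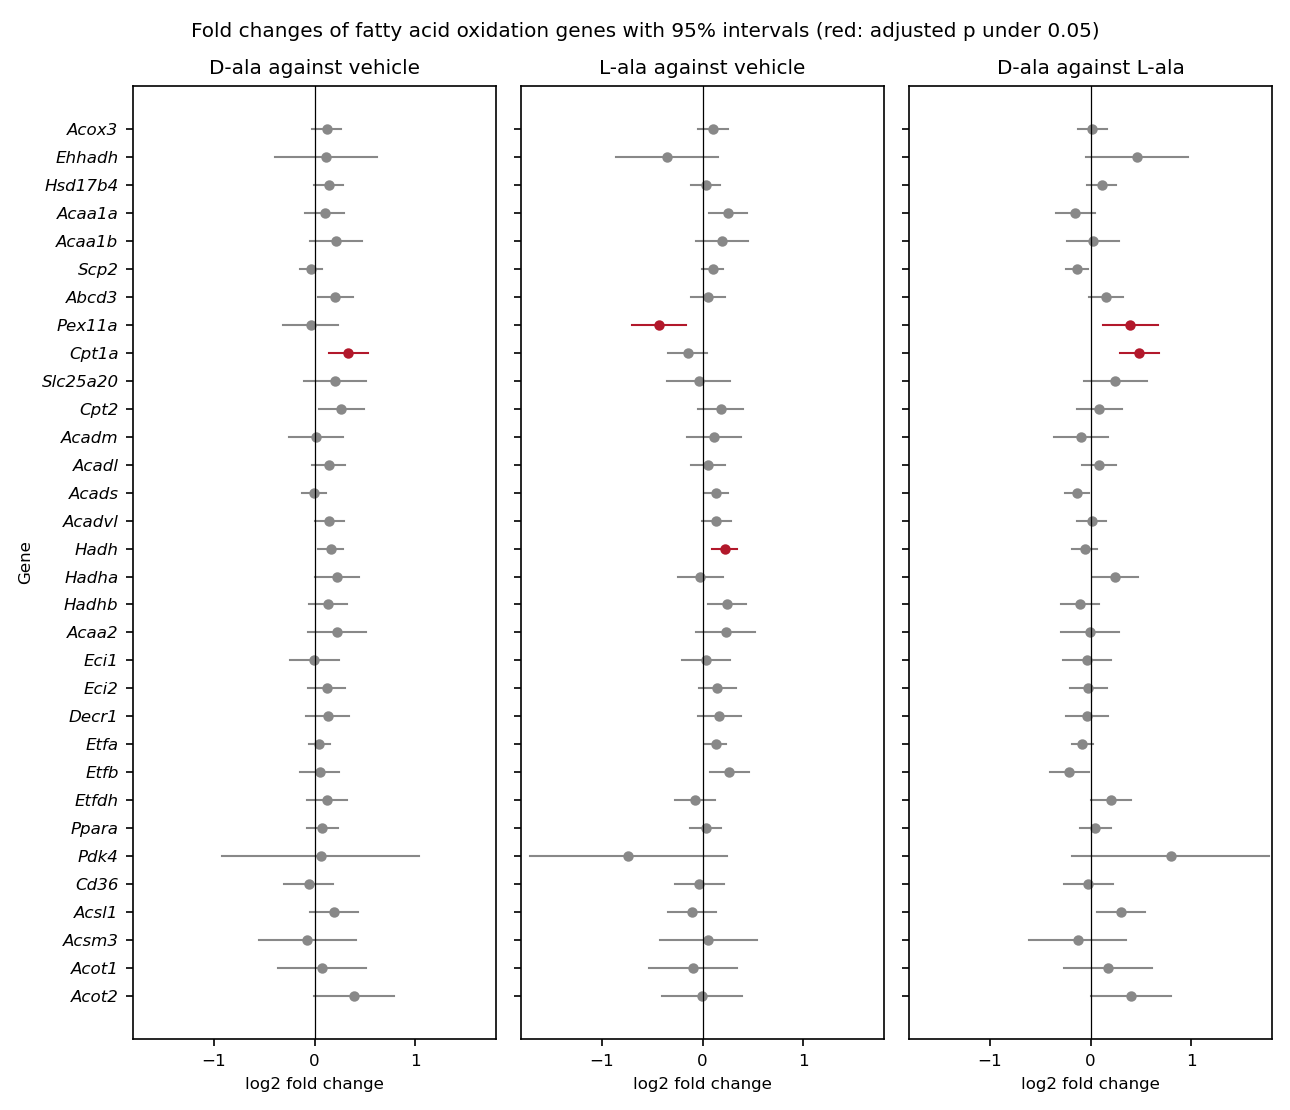
Log2 fold changes (points, x axis) of the 32 tested members (y axis) with 95% intervals (lines) in the 3 comparisons, in red where the adjusted p was under 0.05. Cpt1a is red where D-ala is set against vehicle or L-ala, Pex11a where L-ala is set against vehicle or D-ala against L-ala, and Hadh only where L-ala is set against vehicle. Pdk4 has the widest interval in each comparison.

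The stretches of 250 bases before the start sites of the 3 called members are shown because these are the genes on which the differences turn. They are from RefSeq on GRCm38.p6, on the strand of the gene, and capitals mark the nuclear receptor core motif AGGTCA or the CCAAT box on either strand. The Cpt1a stretch lies at chr19:3323051-3323300 on the plus strand, before the RefSeq start, which is inside the longer span that GENCODE gives the gene. The others lie on the minus strand, that of Pex11a at chr7:79743132-79743381 and that of Hadh at chr3:131272102-131272351.
Cpt1a: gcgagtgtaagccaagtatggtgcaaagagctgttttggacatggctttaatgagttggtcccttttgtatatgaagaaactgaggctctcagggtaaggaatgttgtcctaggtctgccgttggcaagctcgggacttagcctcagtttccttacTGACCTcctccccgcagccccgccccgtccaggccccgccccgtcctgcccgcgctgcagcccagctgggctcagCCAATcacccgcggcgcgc
Pex11a: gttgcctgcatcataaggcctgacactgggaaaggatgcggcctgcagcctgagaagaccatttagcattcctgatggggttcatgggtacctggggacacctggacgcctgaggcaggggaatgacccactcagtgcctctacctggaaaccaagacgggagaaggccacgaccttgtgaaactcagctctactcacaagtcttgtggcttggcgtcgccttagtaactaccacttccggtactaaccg
Hadh: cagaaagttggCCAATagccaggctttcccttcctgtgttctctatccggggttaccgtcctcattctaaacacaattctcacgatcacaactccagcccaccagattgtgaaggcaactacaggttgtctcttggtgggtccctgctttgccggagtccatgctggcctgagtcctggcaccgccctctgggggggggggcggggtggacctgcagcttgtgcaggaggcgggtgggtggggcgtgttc
In Cpt1a the core motif appears in reverse, as TGACCT, and a CCAAT box follows it, whereas Pex11a holds neither and Hadh a CCAAT box alone.

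RefSeq windows of 300 bases, 250 before and 50 after the start, were at hand for 29 of the 33 members, 31 windows in all. Members are counted below, whereas the percentages are of windows. For every motif the number of member windows holding it, of 31, was the same as the number of members. The core motif AGGTCA, searched on both strands, was present in 5 of the 29 (Acadm, Acadvl, Cd36, Cpt1a and Scp2), beside 16.3% of the 32851 windows of all genes. The PPAR type of site, searched as AGGNCANAGGNCA, was in 0 of the 29 members and 0.381% of all windows. The ERR element TNAAGGTCA, which contains the core motif, was in 0 members and 1.28% of all windows. A CCAAT box was in 15 members and 37.4% of all windows. The CREB core TGACG was in 10 members and 20.8% of all windows, and the full element TGACGTCA, which contains it, in 0 members and 1.79%. TATAAA was in 0 members and 13.6% of all windows, and the E-box CACGTG in 0 members and 7.15%. These matches describe letters within 300 bases only.

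Cpt1a, the transferase that admits long-chain fatty acids to mitochondria and sets the pace of their oxidation, was the member with the lowest p-value in both D-ala comparisons. It spans 3322334 to 3385733 on chromosome 19 (GRCm38). It measured 170.9, 206.4, 164.2, 152.6 and 151.7 FPKM in the D-ala libraries. The L-ala libraries had 110.8, 120.9, 110.8, 110.5 and 151.6 FPKM. The vehicle libraries had 129.9, 127.7, 134.6, 137.8 and 135.0 FPKM. Every D-ala library was above every vehicle library and every L-ala library, the closest pair being the lowest D-ala library and L-ala replicate 5. Groups separated in this way, with D-ala higher, for 1 of 32 members and 6.12% of all genes against vehicle, and for 1 of 32 members and 5.08% of all genes against L-ala. With D-ala lower, groups separated for 0 of 32 members in both comparisons, beside 4.76% of all genes against vehicle and 4.02% against L-ala.

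The log2 fold change of Cpt1a was 0.34 (SE 0.09, adjusted p = 0.0263) for D-ala against vehicle. Between D-ala and L-ala it was 0.48 (SE 0.09, adjusted p = 0.00433). The difference from L-ala was called under all 25 alternatives, with adjusted p from 0.000108 to 0.0196. The difference from vehicle kept its direction, with log2 fold changes of 0.26 to 0.37 and adjusted p from 0.00565 to 0.0929, but its call ended without D-ala replicate 1 (adjusted p = 0.0561) or 2 (0.0615), without vehicle replicate 1 (0.0518) or 2 (0.0543), with quantile normalization (0.0929) and with limma voom (0.0529). With L-ala its log2 fold change against vehicle was -0.15 (SE 0.09, adjusted p = 0.285).

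Pex11a, which helps peroxisomes to elongate and divide, was lower under L-ala than in either other group. The gene spans 79735957 to 79743131 on chromosome 7. Its levels were 38.95, 43.4, 42.4, 38.8 and 35.5 FPKM in the D-ala libraries. They were 28.8, 33.4, 23.5, 25.7 and 41.5 FPKM in the L-ala libraries, and 47.4, 44.2, 36.5, 43.7 and 33.9 FPKM in the vehicle libraries. L-ala replicates 1 to 4 lay below every vehicle and every D-ala library, and L-ala replicate 5 lay within both groups. D-ala and vehicle overlapped, with a log2 fold change of -0.04 (95% interval -0.31 to 0.23).

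For L-ala against vehicle the log2 fold change of Pex11a was -0.43 (SE 0.13, adjusted p = 0.0408). Between D-ala and L-ala it was 0.40 (SE 0.13, adjusted p = 0.0496). The first ended under 11 of 25 alternatives, among them leaving out any 1 of D-ala replicates 1 and 3, L-ala replicates 1, 3 and 4 or vehicle replicates 1, 2 and 4, with adjusted p from 0.00382 to 0.111 over all alternatives. The second ended under 18 of 25, among them leaving out any 1 library other than L-ala replicate 5 and vehicle replicate 5, with adjusted p from 0.00381 to 0.131.

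Hadh, the mitochondrial dehydrogenase that oxidises hydroxyacyl-CoA of short and medium chains, was higher under L-ala than under vehicle. The gene spans 131233419 to 131272101 on chromosome 3. Its D-ala libraries had 575.5, 596.7, 576.7, 529.0 and 568.4 FPKM. Its L-ala libraries had 558.4, 587.1, 552.1, 640.7 and 633.6 FPKM, and its vehicle libraries 505.8, 473.7, 519.6, 502.0 and 546.0 FPKM. Every L-ala library was above every vehicle library, a separation with L-ala higher that held for 1 of 32 members and 4.01% of all genes, and with L-ala lower for 0 members and 3.23% of all genes. A single D-ala library, replicate 4, lay within the vehicle group.

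The log2 fold change of Hadh was 0.22 for L-ala against vehicle (SE 0.06, adjusted p = 0.0286). It was 0.16 for D-ala against vehicle (SE 0.06, adjusted p = 0.0870), which did not pass. Between the treatments it was -0.06, with a 95% interval of -0.18 to 0.06. The L-ala call ended without L-ala replicate 4 (adjusted p = 0.0766), without vehicle replicate 1 (0.0523), 2 (0.0685) or 4 (0.0744), within the 2 groups alone (0.0676), with limma voom (log2 fold change 0.11, adjusted p = 0.108), with the length trend removed (0.15, 0.0893) and with quantile normalization (0.01, 0.914). Adjusted p over its alternatives ran from 0.0232 to 0.914.

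**Figure D2:**
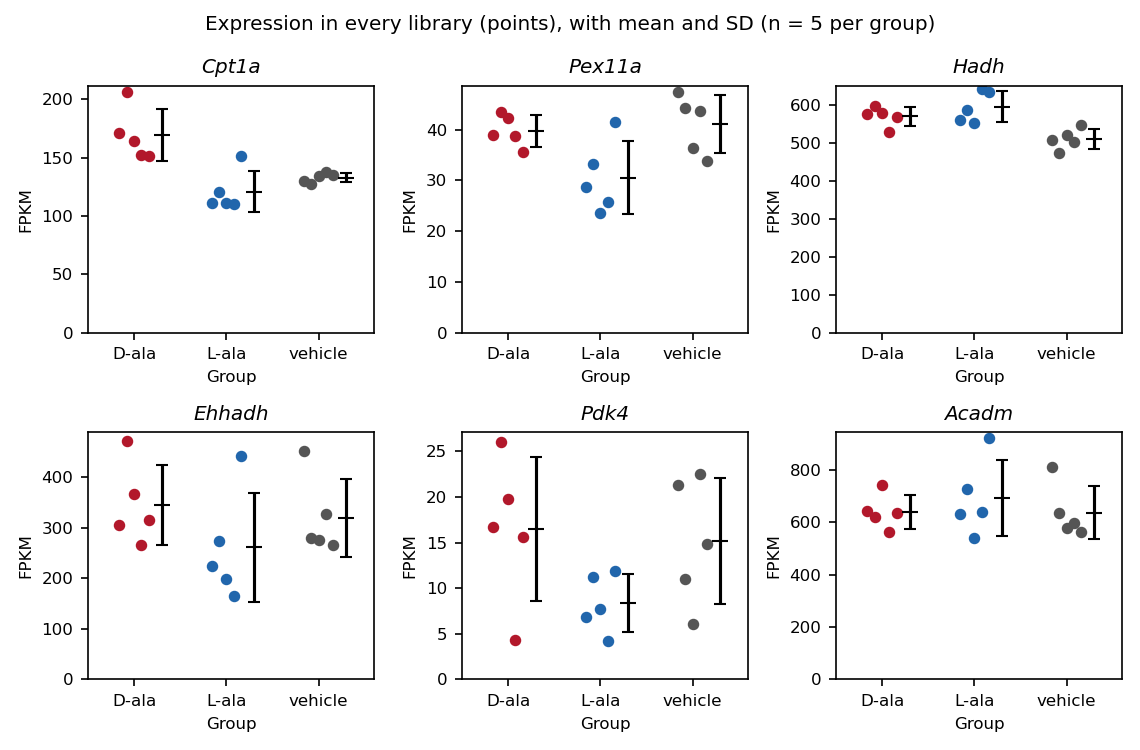
FPKM (y axis, from 0) of 6 members in each library (points), with the mean and SD of 5 libraries beside them, for D-ala, L-ala and vehicle (x axis). Cpt1a is above both other groups in every D-ala library, 4 of the 5 L-ala libraries of Pex11a lie below the other groups, and the groups of Ehhadh, Pdk4 and Acadm overlap.

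One library, L-ala replicate 5, differed from the rest of its group. On gene-centred values its mean correlation with the other L-ala libraries was -0.118, whereas that of every other library with its own group was 0.071 to 0.288. It was the highest L-ala library for 22 of the 32 members, 68.8%, beside 28.7% of all genes tested. Results that involve L-ala were therefore also taken without it. Members called only then rest on leaving this library out.

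Without L-ala replicate 5, the members called for L-ala against vehicle numbered 3 higher and 2 lower, beside 13% and 8.92% of all genes. Those higher were Hadh (log2 fold change 0.20, adjusted p = 0.0265), the peroxisomal thiolase Acaa1a (0.30, adjusted p = 0.0263) and Etfb, a subunit of the electron-transferring flavoprotein (0.32, adjusted p = 0.0187). Those lower were Pex11a (-0.55, adjusted p = 0.00382) and Cpt1a (-0.23, adjusted p = 0.0391). The median over the 32 members was then 0.0012.

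For D-ala against L-ala without that library, 6 members were higher and 1 lower, beside 10.7% and 12.7% of all genes. Cpt1a was at 0.57 (SE 0.08, adjusted p = 0.000272) and Pex11a at 0.51 (SE 0.11, adjusted p = 0.00381). Ehhadh, the peroxisomal enzyme that hydrates and then oxidises enoyl-CoA, was at 0.67 (SE 0.19, adjusted p = 0.0237). Hadha, the subunit of the mitochondrial trifunctional protein that does the same for long chains, was at 0.35 (adjusted p = 0.00889). Acsl1, which activates long-chain fatty acids, was at 0.37 (adjusted p = 0.0221), and Etfdh, which passes electrons from the flavoprotein to ubiquinone, at 0.28 (adjusted p = 0.0175). Etfb was lower, at -0.27 (adjusted p = 0.0376). The median over the members was 0.08. D-ala replicate 2, the highest D-ala library for Ehhadh, was kept in these values. With it left out as well, a setting added after seeing the data, Ehhadh was at 0.55 (adjusted p = 0.0436).

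The peroxisomal enzymes formed the largest block, with 9 members. For D-ala against vehicle 0 of 8 tested were called, with a median of 0.12, beside 6.53% of all genes higher and 4.92% lower. For L-ala against vehicle 0 were higher and 1 lower, beside 6.48% and 4.53% of all genes. Between D-ala and L-ala 1 was higher and 0 lower, beside 7.01% and 6.66%. The called gene was Pex11a both times. Ehhadh had 305.9, 473.1, 367.0, 265.6 and 315.3 FPKM in the D-ala libraries. It had 225.0, 274.9, 199.0, 164.4 and 442.3 FPKM in the L-ala libraries, and 451.7, 279.8, 276.9, 326.9 and 265.0 FPKM in the vehicle libraries. The groups overlapped, and each held a library well above its other 4. Its log2 fold change was 0.11 for D-ala against vehicle (SE 0.24, adjusted p = 0.818), -0.35 for L-ala against vehicle (SE 0.24, adjusted p = 0.330) and 0.46 for D-ala against L-ala (SE 0.24, adjusted p = 0.202).

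Abcd3, a peroxisomal transporter of long and branched acyl-CoA, averaged 200.4 ± 20.1 FPKM with D-ala, 180.4 ± 20.3 with L-ala and 173 ± 11.5 with vehicle (SD, n = 5). Its log2 fold change for D-ala against vehicle was 0.21 (SE 0.08, adjusted p = 0.109). The thiolases Acaa1a and Acaa1b share 96.6% of 1428 aligned transcript bases, so reads could have been divided between them. Acaa1b averaged 315 ± 43.1 FPKM with D-ala, 309 ± 34.8 with L-ala and 273 ± 51.9 with vehicle. Acaa1a averaged 96.0 ± 9.09, 107 ± 16.3 and 89.4 ± 6.78 FPKM in the same groups. Its log2 fold change for L-ala against vehicle was 0.25 (SE 0.09, adjusted p = 0.0784). Hsd17b4, the multifunctional enzyme for branched chains, Acox3, a branched-chain oxidase, and Scp2, a thiolase and sterol carrier, had log2 fold changes between -0.14 and 0.14 in the 3 comparisons, and none was called.

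In the carnitine shuttle, Cpt1a stood beside 2 members that did not pass. Cpt2 averaged 155 ± 27.8 FPKM with D-ala, 145 ± 9.12 with L-ala and 128 ± 15.96 with vehicle. For D-ala against vehicle its log2 fold change was 0.27 (SE 0.11, adjusted p = 0.115). Slc25a20 averaged 64.9 ± 15.9, 53.6 ± 6.59 and 55.4 ± 8.89 FPKM in the same groups, and its log2 fold change in that comparison was 0.20 (SE 0.15, adjusted p = 0.410). In both genes D-ala replicate 2 was the highest of the 15 libraries, at 199.3 and 89.96 FPKM.

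The acyl-CoA dehydrogenases, which take the first step of each mitochondrial round for chains of different length, showed no call. Acadm, the medium-chain enzyme, had 642.2, 621.4, 741.6, 562.0 and 634.7 FPKM in the D-ala libraries. It had 633.5, 726.6, 540.7, 638.8 and 924.7 FPKM in the L-ala libraries, and 811.5, 634.4, 579.5, 596.5 and 564.6 FPKM in the vehicle libraries. The groups overlapped fully, and its log2 fold change was 0.01 for D-ala against vehicle (95% interval -0.25 to 0.28), 0.11 for L-ala against vehicle (-0.16 to 0.38) and -0.10 for D-ala against L-ala (-0.36 to 0.17). Acadvl, the very long-chain enzyme of the inner membrane, averaged 275 ± 26.9 FPKM with D-ala, 271 ± 17.4 with L-ala and 247 ± 11.7 with vehicle, and its log2 fold change for D-ala against vehicle was 0.15 (SE 0.07, adjusted p = 0.176). Acads, the short-chain enzyme, was at 0.13 (adjusted p = 0.124) for L-ala against vehicle, and Acadl, the long-chain enzyme, at 0.14 (adjusted p = 0.273) for D-ala against vehicle.

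Beyond Hadh, the later mitochondrial steps were those of Hadha, Hadhb and the thiolase Acaa2. Hadha and Hadhb, the subunits of the trifunctional protein, lie head to head on chromosome 5, 85 bases apart. Hadha averaged 79.5 ± 10.2 FPKM with D-ala, 67.3 ± 12.1 with L-ala and 67.8 ± 5.93 with vehicle. Hadhb averaged 22.2 ± 2.62, 24.1 ± 3.36 and 20.04 ± 1.11 FPKM in the same groups. For D-ala against L-ala the log2 fold changes were 0.25 (SE 0.11, adjusted p = 0.124) for Hadha and -0.11 (SE 0.09, adjusted p = 0.429) for Hadhb. Acaa2 averaged 342 ± 89.3 FPKM with D-ala, 336 ± 9.64 with L-ala and 289 ± 42.6 with vehicle, and neither comparison with vehicle passed (adjusted p = 0.325 and 0.266).

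The auxiliary enzymes that handle double bonds, Eci1, Eci2 and Decr1, had log2 fold changes of 0.17 or less against vehicle, and none was called in any comparison. Of the electron transfer genes, Etfb had the highest level of all members, at 1155 ± 131 FPKM with D-ala, 1338 ± 141 with L-ala and 1113 ± 109 with vehicle. Its log2 fold change was 0.27 (SE 0.09, adjusted p = 0.0697) for L-ala against vehicle. Etfa, its partner subunit, was at 0.13 (SE 0.05, adjusted p = 0.0872) in that comparison, and Etfdh at -0.08 (SE 0.09, adjusted p = 0.603).

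The regulator Ppara was not called in any comparison. It had 29.9, 23.95, 24.9, 26.2 and 24.4 FPKM in the D-ala libraries. It had 24.1, 26.997, 21.7, 25.04 and 27.2 FPKM in the L-ala libraries, and 22.7, 23.4, 26.9, 26.1 and 23.1 FPKM in the vehicle libraries. The 95% intervals were -0.08 to 0.24 for D-ala against vehicle, -0.13 to 0.19 for L-ala against vehicle and -0.11 to 0.20 for D-ala against L-ala.

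Pdk4, the kinase that shuts off pyruvate dehydrogenase and so favours fat over glucose as fuel, was the most variable member with D-ala and with vehicle. It had 16.7, 25.99, 19.8, 4.26 and 15.6 FPKM in the D-ala libraries. It had 6.79, 11.2, 7.68, 4.14 and 11.9 FPKM in the L-ala libraries, and 21.3, 10.9, 6.08, 22.5 and 14.8 FPKM in the vehicle libraries. Its coefficient of variation was 48.2% with D-ala, 38.5% with L-ala and 45.8% with vehicle, whereas the medians over the tested members were 12%, 11.4% and 9.3%, and over all genes tested 9.37%, 11.6% and 9.76%. The groups overlapped, and the log2 fold changes were 0.06 for D-ala against vehicle (95% interval -0.92 to 1.04), -0.74 for L-ala against vehicle (-1.71 to 0.24) and 0.80 for D-ala against L-ala (-0.18 to 1.77). None was called (adjusted p = 0.957, 0.285 and 0.251). With L-ala, Acsm3 (47.6%) and Ehhadh (41.8%) had higher coefficients of variation than Pdk4.

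The last block takes up, activates or releases fatty acids, and none of its 5 members was called. The fatty acid transporter Cd36 had log2 fold changes between -0.06 and -0.03. Acsl1 averaged 82.8 ± 16.2 FPKM with D-ala, 66.7 ± 9.43 with L-ala and 71.4 ± 5.82 with vehicle, and its fold change between D-ala and L-ala was 0.30 (SE 0.11, adjusted p = 0.0863). Acsm3, a medium-chain acyl-CoA synthetase, reached 705.7 FPKM in L-ala replicate 5, against 246.2 to 411.1 FPKM in the other L-ala libraries. The thioesterases Acot1 (cytosol) and Acot2 (mitochondria) share 94.3% of 1330 aligned transcript bases, so their reads could have been divided. Acot2 had the largest fold change of any member for D-ala against vehicle, 0.39 (SE 0.19, adjusted p = 0.192), and D-ala replicate 2 was at 27.9 FPKM, against 12.4 to 16.1 FPKM in the other D-ala libraries.

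**Figure D3:**
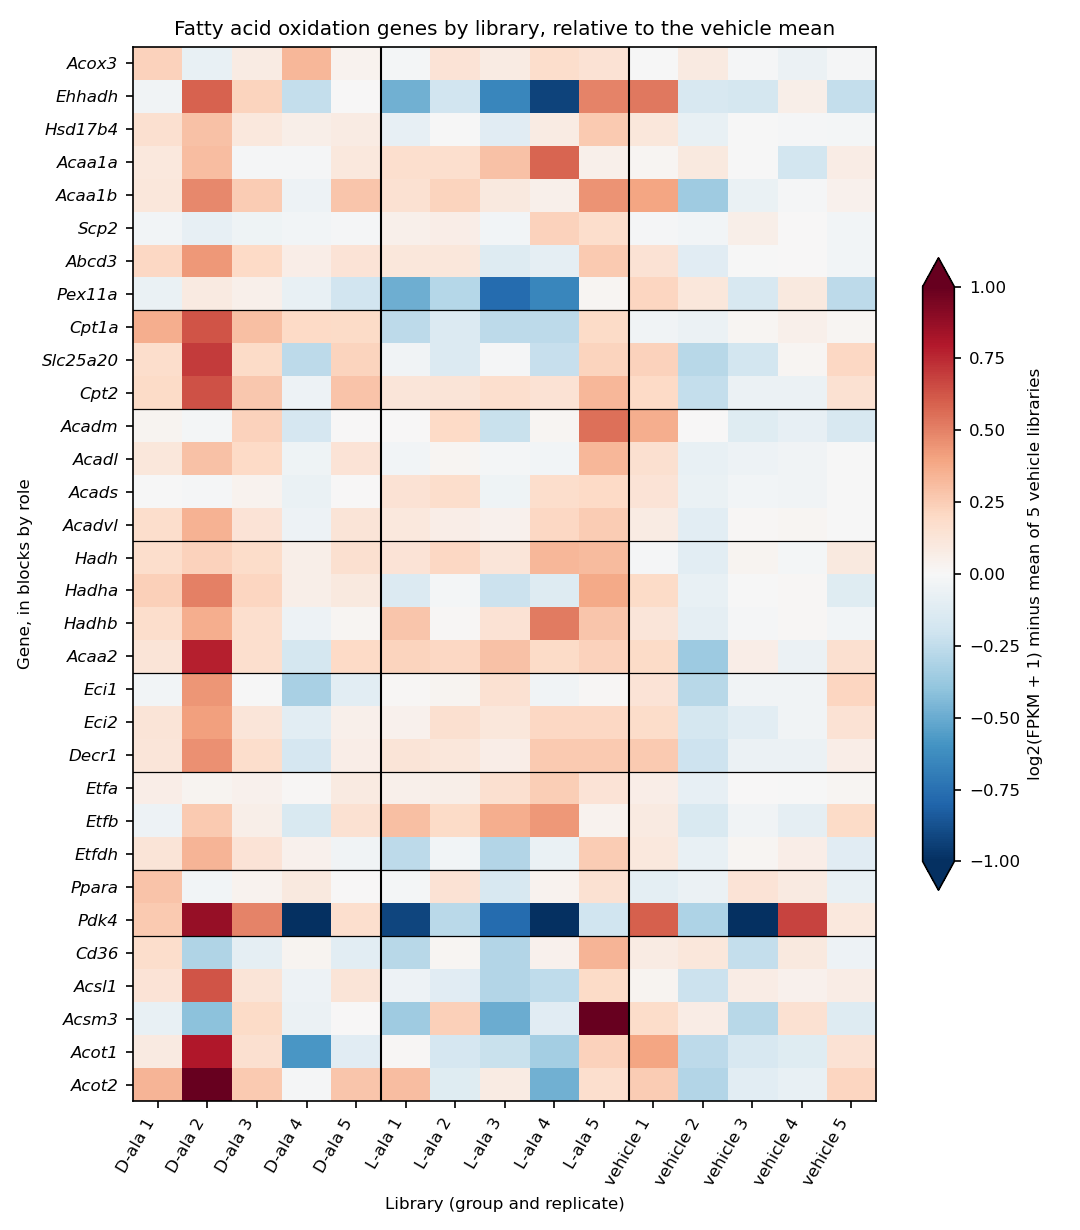
Heat map of the 32 tested members (rows, in blocks by role) in the 15 libraries (columns), coloured by log2(FPKM + 1) minus the mean of the 5 vehicle libraries, with values beyond 1 drawn at the end of the scale. D-ala replicate 2, L-ala replicate 5 and vehicle replicate 1 are the highest of their groups in 24, 22 and 21 rows, and D-ala replicate 4 and vehicle replicate 2 the lowest in 24 and 21.

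All members but Abcd2 were well expressed. Of the 32, 23 were at or above the 90th percentile of the mean level of all genes tested, with Etfb, Acadm and Hadh at percentiles 99.5, 99 and 98.8. Pdk4 was the lowest, with a mean of 13.3 FPKM over all libraries at percentile 57.6, followed by Acot2 at 14.2 FPKM, Hadhb at 22.1 FPKM and Ppara at 25.1 FPKM.

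Many members had their highest or lowest value of a group in the same library. D-ala replicate 2 was the highest D-ala library for 24 of 32 members, 75%, beside 24.5% of all genes, and D-ala replicate 4 the lowest for 24, beside 24% of all genes. D-ala replicate 2 was also the lowest D-ala library for 5 members, and its ratio to the mean of the other 4 ran from 0.741 for Acsm3, 0.806 for Cd36, 0.844 for Acox3 and 0.909 for Ppara to 1.89 for Acot2. Among vehicle libraries, replicate 1 was the highest for 21 members, 65.6%, beside 20.9% of all genes, and replicate 2 the lowest for 21, beside 19.9%. The median ratio of D-ala replicate 2 to the mean of the other 4 D-ala libraries was 1.21 over the members and 1.0019 over all genes. The same ratio was 0.851 for D-ala replicate 4, 1.17 for L-ala replicate 5, 1.13 for vehicle replicate 1 and 0.919 for vehicle replicate 2, with all genes between 0.9921 and 1.0011. With 5 libraries a group and genes that are not independent, these shares describe the libraries and carry no test.

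**Figure D4:**
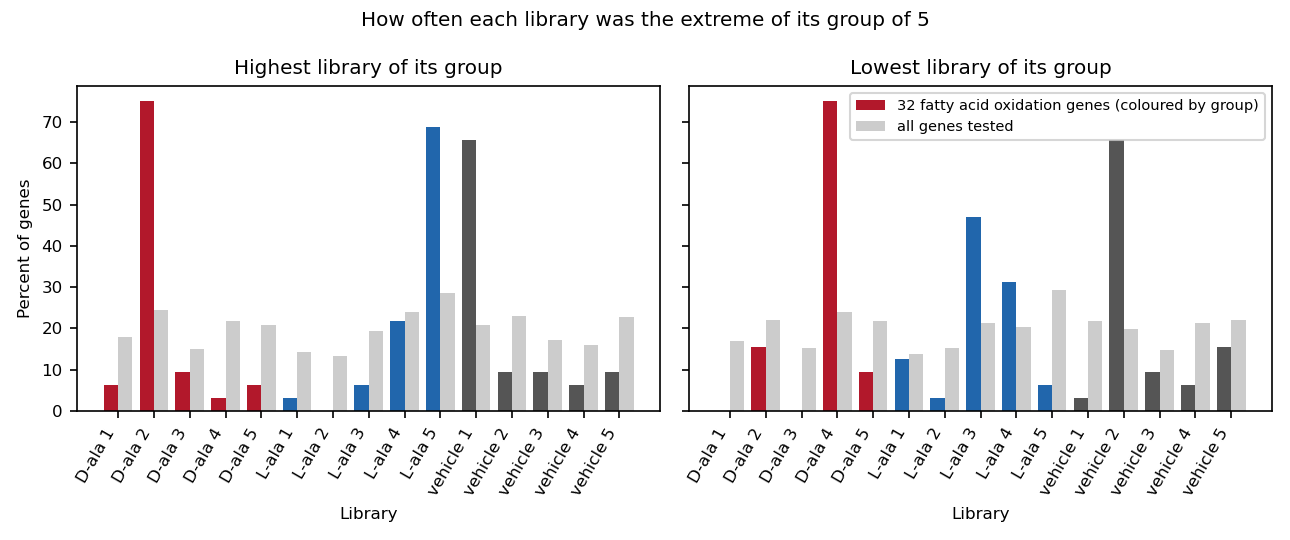
Percent of genes (y axis) for which each library (x axis) was the highest (left) or lowest (right) of its group of 5, for the 32 tested members (coloured by group) and all genes tested (grey). The members peak at D-ala replicate 2 (75%), L-ala replicate 5 (68.8%) and vehicle replicate 1 (65.6%) on the left and at D-ala replicate 4 (75%) and vehicle replicate 2 (65.6%) on the right.

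Summed marker levels of other cell types also differed in these libraries, in more than 1 direction. The sum of 11 adipocyte markers, 9 of them tested and none at 0 in every library, was 607 FPKM in D-ala replicate 2 and 78.9 in D-ala replicate 4, the ends of the D-ala range. In the other groups its highest values were not in the members' highest libraries, L-ala replicate 5 (167 FPKM) and vehicle replicate 1 (225). The L-ala range was 157 to 268 FPKM and the vehicle range 111 to 503, with vehicle replicate 4 highest. The lowest sums were in L-ala replicate 3 and vehicle replicate 2, the libraries most often lowest for the members (15 and 21 of 32). Red blood cell markers (8 of 9 listed in the table) summed to 121.25 to 1175 FPKM under D-ala, with replicate 2 highest, 637 to 1743 under L-ala and 76.7 to 660.4 under vehicle, with replicate 1 highest and replicate 2 lowest.

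Markers of the thick ascending limb (6 of 6 in the table) summed to 1385 FPKM in D-ala replicate 2 and 2119 in D-ala replicate 4, the lowest and highest of that group. Their sums were 1305 to 1789 FPKM under L-ala, with replicate 5 at 1714, and 1952 to 2238 under vehicle, with replicate 1 lowest. Endothelial markers (8 of 8) were lowest of their groups in D-ala replicate 2, at 70.9 FPKM, and in L-ala replicate 5, at 61.6, and were 161 in vehicle replicate 1. Their ranges were 70.9 to 105 under D-ala, 61.6 to 138 under L-ala and 97.7 to 166 under vehicle. Macrophage markers were summed over 9 symbols, of which Adgre1 and Emr1 name the same gene and were both added. These sums were lowest of their groups in D-ala replicate 2, at 109.5 FPKM, and in L-ala replicate 5, at 125. The highest was in vehicle replicate 1, at 264. Depth was about 10460000 reads in D-ala replicate 2, 10040000 in D-ala replicate 4, 8820000 in L-ala replicate 5 and 7570000 in vehicle replicate 1, the lowest of all. The part of these differences in the members' values was not tested.

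Proximal tubule markers, which mark the main epithelium of the kidney cortex, were present in every library. The sum of 15 markers was 8700 to 10113 FPKM under D-ala, 8846 to 9698 under L-ala and 7951 to 8943 under vehicle. Of the 15, 3 were higher and 0 lower for D-ala against vehicle, with a median of 0.08, and 4 were higher and 0 lower for L-ala against vehicle, with a median of 0.20. The members' medians in these comparisons were 0.12 and 0.06. Other lists differed between the groups as well. Of 8 endothelial markers, 0 were higher and 2 lower for D-ala against vehicle (median -0.42), and 0 higher and 4 lower for L-ala against vehicle (median -0.55). Of 7 tested macrophage markers, 0 were higher and 3 lower with D-ala (median -0.55), and 0 higher and 1 lower with L-ala (median -0.24). All 6 thick ascending limb markers had negative values in both comparisons, with 1 called in each and medians of -0.19 and -0.26. All 9 tested adipocyte markers had positive values for D-ala against vehicle (median 0.94), but 0 were called, and 0 passed an unadjusted p under 0.05. Of 4 distal convoluted tubule markers, 2 were higher and 0 lower with D-ala (median 0.32) and 0 were called with L-ala (median 0.21). Among 8 collecting duct markers, 3 were higher and 1 lower with D-ala (median 0.14) and 0 were called with L-ala (median 0.06). For 7 tested red blood cell markers, 0 were called in either comparison, with medians of 0.16 with D-ala and 2.11 with L-ala. At an unadjusted p under 0.05, 1 and 6 of them were higher. In bulk tissue, fewer cells of a type and less RNA per cell cannot be told apart, and the part of cell content in the members' values was not tested. Skeletal muscle markers (7 listed) summed to 1.12 to 3.18 FPKM under D-ala, 1.17 to 3.65 under L-ala and 1.34 to 2.50 under vehicle. Only 1 of them, Mylpf, was tested, at 0.06 for D-ala against vehicle and 0.31 for L-ala against vehicle, and it was not called. Myh4, a marker of fast skeletal muscle, was at 0 in every library.

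Around the members, 145 other genes of the pathway were listed and 137 tested. For D-ala against vehicle 14 were higher (10.2%) and 3 lower (2.19%), with a median of 0.07. For L-ala against vehicle 12 were higher (8.76%) and 2 lower (1.46%), with a median of 0.03, and for D-ala against L-ala 9 were higher (6.57%) and 4 lower (2.92%), with a median of 0.04. These shares are to be read against the shares of all genes given above.

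Of 19 tested PPAR family members and cofactors, 2 were higher (10.5%) and 1 lower (5.26%) for D-ala against vehicle, beside 6.53% and 4.92% of all genes. Ppargc1a, the coactivator of mitochondrial genes, averaged 14.3 ± 1.35 FPKM with D-ala, 13.3 ± 0.405 with L-ala and 11.8 ± 0.511 with vehicle, and its log2 fold change for D-ala against vehicle was 0.25 (SE 0.06, adjusted p = 0.0149). Rxrb, a partner receptor, fell to 17.1 ± 1.32 FPKM under D-ala, against 20.9 ± 1.65 under vehicle (-0.27, SE 0.07, adjusted p = 0.0146). The bile acid receptor Nr1h4 was higher under D-ala than under vehicle (0.43, adjusted p = 0.0214) and than under L-ala (0.40, adjusted p = 0.0286). Its first call ended without D-ala replicate 1 or 2 or vehicle replicate 2, and its second without D-ala replicates 1, 2 or 3 or L-ala replicates 1 or 2, with adjusted p up to 0.057 and 0.0762.

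Of 20 tested target genes of PPARalpha outside the members, only G0s2 was called, in both comparisons with vehicle. It made up 5% of the list, beside 6.53% of all genes higher with D-ala and 6.48% with L-ala. G0s2, an inhibitor of triglyceride lipase, averaged 304 ± 54.1 FPKM with D-ala, 272 ± 114 with L-ala and 142 ± 15.3 with vehicle. Its log2 fold change was 1.08 (SE 0.22, adjusted p = 0.00600) for D-ala against vehicle, called under all 25 alternatives. It was 0.84 (SE 0.22, adjusted p = 0.0285) for L-ala against vehicle, and that call ended without L-ala replicate 4 or vehicle replicates 3 or 4, with quantile normalization, with only the 2 groups fitted and with the length trend removed (adjusted p up to 0.0807).

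Angptl4, an inhibitor of lipoprotein lipase and a target of PPARalpha, was not called in any comparison (adjusted p = 0.980, 0.897 and 0.871). Txnip, a glucose-responsive regulator of redox state, was at -0.24 (adjusted p = 0.245) for D-ala against vehicle and at -0.41 (SE 0.13, adjusted p = 0.0509) for L-ala against vehicle. The L-ala value passed under 8 of 25 alternatives and not under 17. It passed with quantile normalization (adjusted p = 0.0235), limma voom (0.0137), median-of-ratios scaling (0.0479) and the GC trend removed (0.0495). It also passed without D-ala replicate 4 (0.0371), L-ala replicate 5 (0.0424) or vehicle replicate 3 (0.00926). Without D-ala replicate 2 and L-ala replicate 5 together its adjusted p was 0.0465. The D-ala value passed only without vehicle replicate 3 (0.0335).

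Among 28 other tested enzymes and membrane proteins of the peroxisome, 5 were higher and 0 lower for D-ala against vehicle, 6 higher and 0 lower for L-ala against vehicle, and 2 higher and 0 lower for D-ala against L-ala. The shares higher were 17.9%, 21.4% and 7.14%, beside 6.53%, 6.48% and 7.01% of all genes. The shares of all genes lower were 4.92%, 4.53% and 6.66%. Phyh, which starts the breakdown of the branched-chain phytanic acid, averaged 885 ± 22.5 FPKM with D-ala, 851 ± 88.4 with L-ala and 694 ± 46.3 with vehicle, and was called for D-ala against vehicle under all 25 alternatives (0.35, SE 0.07, adjusted p = 0.00396). Tysnd1, the protease that processes peroxisomal oxidation enzymes, averaged 34.5 ± 1.46 FPKM under L-ala, against 26.7 ± 2.82 under vehicle (0.36, SE 0.07, adjusted p = 0.00960), and was also called under all 25. Ephx2, an epoxide hydrolase, was at 0.27 (adjusted p = 0.0102) for L-ala against vehicle and was lost only with quantile normalization (0.07, adjusted p = 0.35). Pecr, a trans-enoyl-CoA reductase, was higher in both comparisons with vehicle, at 0.24 (adjusted p = 0.0319) under D-ala and 0.33 (adjusted p = 0.0111) under L-ala. The L-ala call ended with quantile normalization (0.11, adjusted p = 0.326) and with the length trend removed (0.20, adjusted p = 0.0752).

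Catalase (Cat) averaged 643 ± 12.2 FPKM with D-ala, 546 ± 55.8 with L-ala and 554 ± 25.8 with vehicle, and was higher for D-ala against L-ala (0.24, SE 0.07, adjusted p = 0.0257). The membrane protein Pxmp4 was higher in that comparison under all 25 alternatives (0.35, SE 0.08, adjusted p = 0.0147). The thioesterase Acot8 was at 0.23 (adjusted p = 0.0340) for D-ala against vehicle. Under D-ala, the calls of Pecr and Acot8 each ended under 10 of 25 alternatives, 8 and 7 of them single libraries. Adjusted p ran up to 0.09 and 0.103. The call of Cat against L-ala ended without D-ala replicate 1 or 3 and with only the 2 groups fitted (adjusted p up to 0.0601).

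Of 15 tested peroxins, which assemble peroxisomes, Pex16 and Pex10 were higher under D-ala than under vehicle. Pex16 averaged 59.7 ± 5.33 FPKM with D-ala, 49.3 ± 3.35 with L-ala and 45.9 ± 3.95 with vehicle (0.37, SE 0.07, adjusted p = 0.00408 against vehicle). Pex10 was at 0.33 (SE 0.08, adjusted p = 0.0115), and both were called under all 25 alternatives. Pex2, listed under its older symbol Pxmp3, was lower under D-ala than under vehicle (-0.19, adjusted p = 0.0243) and than under L-ala (-0.21, adjusted p = 0.0164). Its first call ended without D-ala replicate 2, 3 or 5 or vehicle replicate 4 and with the GC trend removed (adjusted p up to 0.0733). Its second call ended with quantile normalization (adjusted p = 0.0668). Where L-ala was set against vehicle, Pex11g (listed as Pex11c) was higher (0.41, adjusted p = 0.0162, lost without vehicle replicate 4 at 0.0532). Against L-ala, D-ala was also higher for Pex16 (0.27, adjusted p = 0.0250) and lower for Pex6 (-0.22, adjusted p = 0.0375). These calls ended under 5 and 11 of 25 alternatives, 5 and 7 of them single libraries.

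In the remaining lists the calls were scattered. Among 22 other tested mitochondrial oxidation genes, 0 were higher and 0 lower with limma for D-ala against vehicle, beside 6.53% and 4.92% of all genes. At an unadjusted p under 0.05 there were 1 and 1, beside 3126 of all 11781 genes in either direction. Cpt1b, the muscle form of the outer-membrane transferase, averaged 15.6 ± 1.77 FPKM with D-ala, 11.7 ± 1.60 with L-ala and 14.6 ± 1.58 with vehicle, and its difference between D-ala and L-ala (0.38, SE 0.10, adjusted p = 0.0177) was called under all 25 alternatives. Acacb, whose product malonyl-CoA inhibits these transferases, was also higher in that comparison (0.40, adjusted p = 0.0355). Its call ended under 9 of 25 alternatives, 6 of them single libraries. With L-ala, the CoA hydrolase gene Nudt8 (0.33, adjusted p = 0.0348) and Mmaa, of cobalamin handling (0.23, adjusted p = 0.0485), were higher than with vehicle. Their calls ended under 12 and 19 of 25 alternatives, 7 and 12 of them single libraries. Nudt8 was at 0.13 (adjusted p = 0.13) with the length trend removed, and Mmaa at 0.145 (adjusted p = 0.166) with limma voom.

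Slc16a1, which carries lactate, pyruvate and ketone bodies, was in the ketone body list and averaged 9.67 ± 1.86 FPKM with D-ala, 7.46 ± 0.854 with L-ala and 5.79 ± 0.825 with vehicle. Its log2 fold change for D-ala against vehicle was 0.65 (SE 0.11, adjusted p = 0.00142), called under all 25 alternatives. Oxct1, which reactivates ketone bodies for oxidation, was lower with D-ala than with L-ala (-0.27, adjusted p = 0.0116), a call that ended with quantile normalization (-0.10, adjusted p = 0.465). Of the uptake genes, the fatty acid transporter Slc27a1 was higher under D-ala than under vehicle (0.41, adjusted p = 0.0318) and than under L-ala (0.37, adjusted p = 0.0458), and the cation carrier Slc22a4 higher than under vehicle (0.28, adjusted p = 0.0487). These calls ended under 8, 15 and 19 of 25 alternatives, 6, 11 and 12 of them single libraries. The thioesterase Acot13 (0.24, adjusted p = 0.0196) and the acyl-CoA binding protein Dbi (0.30, adjusted p = 0.0487) were higher for L-ala against vehicle. The Acot13 call ended without vehicle replicate 4, with limma voom (0.14, adjusted p = 0.0799), with quantile normalization (0.05, adjusted p = 0.553) and with the length trend removed (0.02, adjusted p = 0.857). The Dbi call ended under 18 of 25 alternatives, 10 of them single libraries, and was at 0.05 (adjusted p = 0.544) with the length trend removed.

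In the list around pyruvate dehydrogenase, the pyruvate carrier subunit Mpc1 (listed as Brp44l) was higher for D-ala against vehicle (0.30, adjusted p = 0.0111) and was lost only with limma voom (adjusted p = 0.0504). The phosphatase Pdp1 was lower in that comparison (-0.34, adjusted p = 0.0387). The phosphatase Pdp2 was higher with D-ala than with L-ala (0.43, adjusted p = 0.0365) and Mpc2 (listed as Brp44) lower (-0.29, adjusted p = 0.0334). These 3 calls ended under 12, 10 and 9 of 25 alternatives, 7, 7 and 6 of them single libraries. Mpc2 (Brp44) was at -0.12 (adjusted p = 0.125) with quantile normalization. The coactivator Ncoa1 was lower for L-ala against vehicle (-0.25, adjusted p = 0.0360), lost without 5 single libraries, and at -0.13 (adjusted p = 0.238) with the length trend removed.

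**Figure D5:**
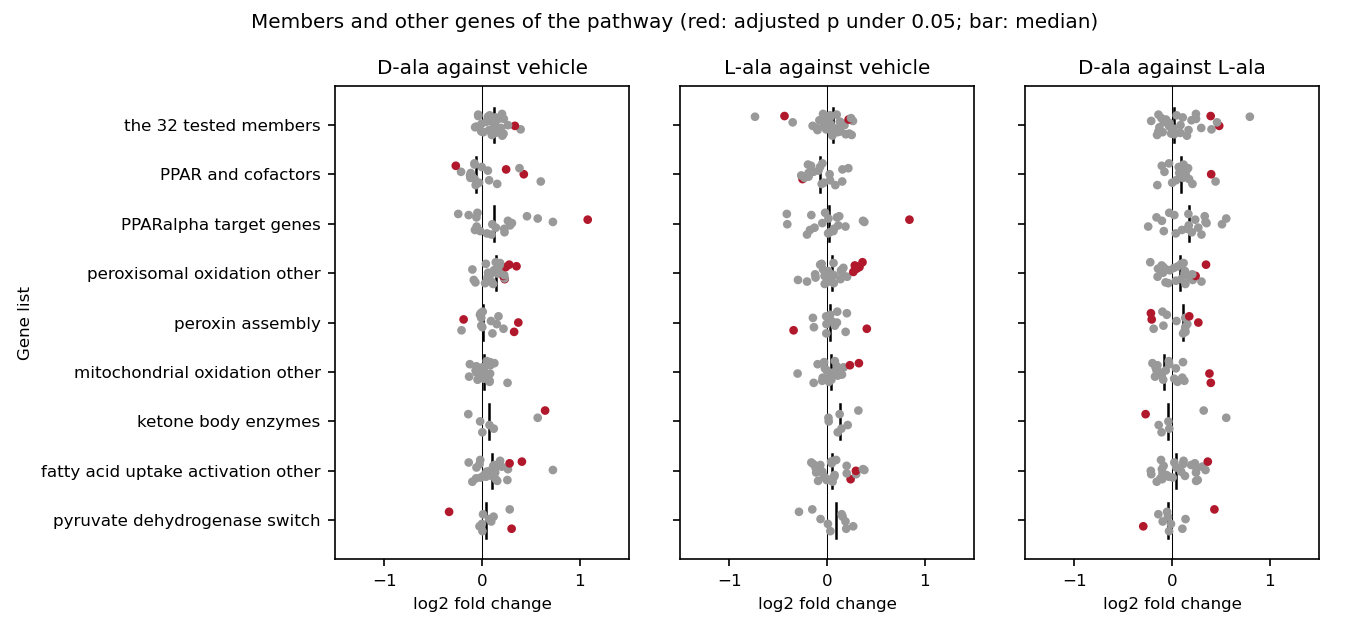
Log2 fold changes (x axis) of the 32 tested members and of the other tested genes of the pathway by list (y axis) in the 3 comparisons, 1 point per gene, red where the adjusted p was under 0.05, with the list median as a bar. G0s2 is the point farthest to the right in the PPARalpha targets for both comparisons with vehicle (1.08 and 0.84).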

How the data were processed

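Kidney RNA of 15 samples was analysed, in groups of 5 taken from the labels' treatment field. The submitters' processing notes name build mm10, SAMtools 0.1.19, Bowtie2 2.2.3 and TopHat2 2.0.13 without saying what each was used for. How reads were counted, on which annotation and with or without strand, is not stated. Per the labels' protocols, the kit keeps strand and selects messenger RNA.

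The deposited FPKM, named so per the file headers, carry a correction for transcript length and for library depth, and all tests used them. The deposited log2 column, headed as processed signal, lay within 0.0012 of FPKM on the log2 scale centred on each gene over 10664 genes, and was not used further. The deposited whole-number column was treated as a score, because its low values in most libraries are spaced as counts would be after rescaling by library and rounding. The estimated factor gave the depth, and the main test is not a count model. FPKM carry no counting interval, so precision is the spread between libraries, and no pair of libraries was identical.

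Genes with at least 1 FPKM in 5 libraries were fitted as log2(FPKM + 1), a scale that understates changes of low genes, with limma 3.58.1 in R 4.3.3, with 1 mean per group over all 15 libraries and robust empirical Bayes moderation with a trend. P-values were adjusted by the Benjamini-Hochberg method over all genes within each of 3 comparisons. The script was tested on simulated data. Gene positions were taken from GENCODE M21 (GRCm38), and 1940 of the table's symbols matched as older names or synonyms and 433 not at all. The members and lists were chosen with earlier results of these data known. Values per library are given for members called in any comparison and for Ppara, Cpt1a, Acadm, Ehhadh and Pdk4. Of the other pathway genes, up to 3 called per list and comparison were named by smallest p, and always Angptl4, Ppargc1a and Txnip, and the values of some genes this rule names are not reported here. Cat and Pxmp4 are among those so named for D-ala against L-ala. Alternatives were other scaling, filters, pseudocount, variance models and designs, limma voom on the rescaled counts, removal of trends with gene length or GC content (known for 11329 of 11781 genes), and leaving out each library. Leaving out D-ala replicate 2 and L-ala replicate 5 together was added after seeing the data.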

Additional observations from a re-analysis of the deposited data

Results flagged for a closer look

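In groups of 5 libraries, a library was singled out when its gap to the nearest other library exceeded 0.71 of the group's range. Over the 32 tested members this held in 9 of 96 groups, in 7 members, where chance alone gives about 1 in 20. The members vary together, so these are not 9 separate events.

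L-ala replicate 5 was high for Cpt1a at 151.6 FPKM, against 110.5 to 120.9 in the other L-ala libraries. It was also high for Cpt2 at 160.7 FPKM, against 138.8 to 143.3, and for Acadl at 334.2 FPKM, against 260.1 to 268.7. D-ala replicate 2 was high for Acsl1 at 110.9 FPKM, against 68.7 to 78.3 in the other D-ala libraries, and for Acot2 at 27.9 FPKM, against 12.4 to 16.1. Vehicle replicate 1 was high for Acadm at 811.5 FPKM, against 564.6 to 634.4 in the other vehicle libraries, and for Acads at 225.4 FPKM, against 195.1 to 203.8. On the low side were L-ala replicate 3 for Acads at 198.4 FPKM, against 226.7 to 235.8, and vehicle replicate 2 for Acsl1 at 61.2 FPKM, against 72.7 to 75.0. D-ala replicate 2, L-ala replicate 5 and vehicle replicate 1 were the highest of their groups for 24, 22 and 21 of the 32 members, vehicle replicate 2 the lowest for 21 and L-ala replicate 3 the lowest for 15.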

How the results depend on the processing

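No paired analysis was possible because the labels give no replicate numbers shared between groups, and numbers here follow sample order. Among the members, the number higher for D-ala against vehicle was 1, and 0 with quantile normalization or limma voom. With L-ala 1 was higher than with vehicle, and 0 with quantile normalization, limma voom, the length trend removed or only the 2 groups fitted. In that comparison 1 was lower, and 0 with no filter on low values, the length trend removed or only the 2 groups fitted. Without D-ala replicate 2 and L-ala replicate 5 together, chosen after seeing the data, 3 were higher and 3 lower. Of all 11781 genes, 1552 were then higher and 1054 lower in that comparison, against 763 and 534 with all libraries. Between D-ala and L-ala, 2 were higher and 0 lower. The higher count was 1 with no filter, quantile normalization, no trend or robust step in the variances, only the 2 groups or the length trend removed, and without those 2 libraries the counts were 6 and 2. The all-gene counts between D-ala and L-ala were then 1145 higher and 1401 lower, against 826 and 785 with all libraries. Leaving out single libraries gave 0 to 2 higher for D-ala against vehicle, 0 to 3 higher and 0 to 2 lower for L-ala against vehicle, and 1 to 6 higher and 0 to 2 lower for D-ala against L-ala.

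Small uncalled fold changes reversed. For D-ala against vehicle Acadm was -0.0292 with quantile normalization and -0.0507 with voom, and Pdk4 -0.0040 with voom. The quantile values for L-ala against vehicle were -0.1228 for Acadm, -0.0354 for Ppara and -0.0451 for Angptl4. The voom values in that comparison were -0.0736 for Ppara and -0.0416 for Angptl4. Between D-ala and L-ala, quantile normalization gave 0.0936 for Acadm and 0.0969 for Hadh, and removing the length trend gave -0.0473 for Ppara. Without D-ala replicate 2 and L-ala replicate 5 together, Ehhadh was -0.0101 and Pdk4 -0.1422 for D-ala against vehicle, Acadm -0.0002 for L-ala against vehicle, and Acadm 0.0238 for D-ala against L-ala.

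Leaving out single libraries gave, for D-ala against vehicle, Ehhadh -0.0101 to 0.2415, Pex11a -0.1042 to 0.0142, Acadm -0.0400 to 0.1045, Pdk4 -0.2051 to 0.4476 and Angptl4 -0.2498 to 0.1622. It gave, for L-ala against vehicle, Acadm -0.0002 to 0.2000 and Angptl4 -0.0765 to 0.2416. Between D-ala and L-ala it gave Acadm -0.1788 to 0.0145, Ppara -0.0037 to 0.0780 and Angptl4 -0.3145 to 0.0975. The cause of these changes was not tested. The FPKM come without a counting interval, so the part of depth in their precision was not measured, and 5 libraries a group limit the precision. All-gene calls for L-ala against vehicle were 1297, and 391 without L-ala replicate 4, 321 without vehicle replicate 4 and 2580 without L-ala replicate 5.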
